A study of Oryza sativa Japonica Group with 17 samples.

Results

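The set described here is the landscape of i-motifs (iMs) in hypermethylated rice DNA refolded at pH 5.5. Its members, here named common peaks, are iMab peaks called against input that met one called against IgG over at least 1 bp. They numbered 82718 of 92099 input-called peaks, and 354589 common peaks were found over the 5 conditions of the series. The share of input-called peaks that were common was 89.8%, and of the 90964 peaks called against IgG, 92.6% had a partner called against input. Over all 5 conditions the share of input-called peaks that were common was 83.7%.

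The study asked how DNA methylation and pH affect iM formation in Nipponbare (Oryza sativa, Japonica) seedling DNA. To obtain hypermethylated DNA, purified genomic DNA (4 µg) was treated for 1 h at 37 °C with M.CviP I (8 units), with S-adenosyl-methionine (640 µM) as the methyl donor. The labels call M.CviP I a CpG methyltransferase, whereas it is generally known as a GpC methyltransferase. At pH 5.5 there were 2 iMab IP libraries, merged by the authors before peak calling, and 1 IgG library. The 1 input library of hypermethylated DNA also served as the control at pH 7.0, where a further 2 iMab IP libraries and 1 IgG library were made from DNA of the same treatment. The third condition used here was demethylated DNA at pH 5.5, from seedlings grown with 80 µM zebularine, an inhibitor of DNA methyltransferase, with 2 iMab IP libraries, 1 IgG library and an input of its own. CK pH 7.0 (DNA with its methylation left unchanged) and demethylated pH 7.0 each had 2 iMab IP libraries and 1 IgG library. They are used only in the totals over all conditions and where single regions are set beside the other conditions. All peaks came from naked DNA folded in vitro, so they carry no information on chromatin or on living cells.

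An iM is a folded structure in which stretches of C on a single DNA strand pair with each other, each pair sharing a proton. Acid favours such pairs, since one of the C bases has to be protonated, and methylation at position 5 of C changes how easily this happens. iMab is an antibody fragment that recognises the folded form, IgG reports DNA that is pulled down without that recognition, and input reports how much of each locus was in the DNA before IP. In rice, genes are concentrated towards the chromosome arms, and repeats and transposons towards the centromeres, whose positions were not used here.

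Each peak carried a fold enrichment, which is the iMab coverage at the summit over the local control level. The lowest control level of a list, here called background, is the genome mean that the peak caller sets after scaling the IP and control to each other. It was 9.35 fragments in both lists, and the median summit held 47 fragments in common peaks. The merging left no replicate error. An SD below is therefore the spread over the 12 chromosomes, and an interval covers counting error only.

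Common peaks were found on every chromosome at similar densities. The count ran from 5217 on chromosome 9 to 9105 on chromosome 1, and the density was 223 ± 9.79 peaks per Mb (SD, n = 12 chromosomes). Chromosome 12 had the highest density with 238.6 peaks per Mb, followed by chromosome 10 with 237.1 and chromosome 8 with 229.9. Chromosome 3 had the lowest with 208.2 peaks per Mb, followed by chromosome 1 with 210.4 and chromosome 2 with 211.3. The 3 chromosomes of lowest density were the 3 longest, and across the 12 chromosomes Pearson's r between length and density was -0.84 and Spearman's rho was -0.85, given as a description. The highest density exceeded the lowest 1.15 times.

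Within chromosomes the density varied more. In 368 full bins of 1 Mb the mean was 221 peaks per Mb with an SD of 35.8, a coefficient of variation (CV) of 0.162, and the range ran from 134 to 331 peaks. Peak counts with no structure beyond counting error would have a CV of 0.0672 at this mean. The middle 50% of bins lay between 193.75 and 245 peaks. Neighbouring bins had like densities, with Pearson's r of 0.64 over 356 neighbouring pairs.

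The densest bin was chr4:10000001-11000000 with 331 peaks (95% exact Poisson interval 296 to 369), 1.49 times the mean. It was followed by chr4:3000001-4000000 and chr5:10000001-11000000 with 317 peaks each, chr6:18000001-19000000 with 313 and chr2:13000001-14000000 with 310. The last of these also held 38 input-called peaks over an input level at least 2 times background, against 0 to 2 in the other 4. IgG-called peaks over such an IgG level numbered 19, 24, 33, 37 and 62 in the 5 bins as ordered, against a median of 10 over all bins. The part of these peaks in the densities was not tested. The intervals of these 5 bins overlapped, so their order is not resolved. The sparsest bin was chr3:1000001-2000000 with 134 peaks (112 to 159), 0.605 times the mean, and then chr4:32000001-33000000 with 148, chr4:34000001-35000000 and chr9:19000001-20000000 with 156 each, and chr1:37000001-38000000 with 161. Chromosome 4 held 2 of the 5 densest and 2 of the 5 sparsest bins, with the dense ones at 9.86% and 29.6% of its length and the sparse ones at 91.5% and 97.2%.

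**Figure D1:**
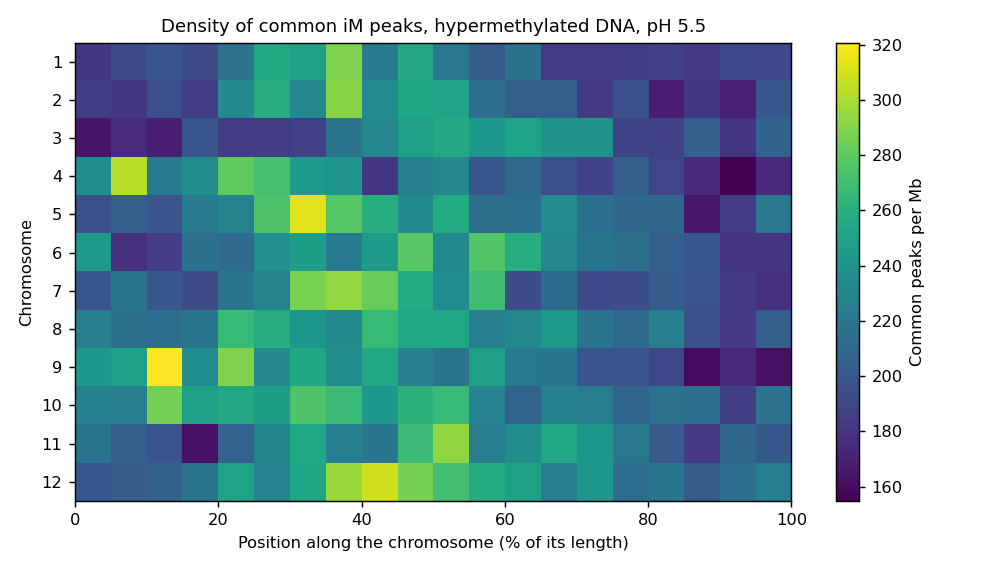
Density of common peaks in hypermethylated DNA at pH 5.5, in peaks per Mb (colour), for each chromosome (rows) in 20 equal parts of its length (columns, % of length). The highest value was 321 peaks per Mb on chromosome 9 and the lowest 155 on chromosome 4, and the brighter parts lie between about 10 and 60% of the length.

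The dense bins lay away from the chromosome ends. On 11 of 12 chromosomes the densest bin had its centre between 25 and 75% of the length, the exception being chromosome 9 with 304 peaks at 10.9%. The sparsest bin lay outside this stretch on 12 of 12 chromosomes. Within a chromosome the densest bin held 1.60 to 2.24 times as many peaks as the sparsest. Between 25 and 75% of the length the density was 239.8 ± 11.5 peaks per Mb (SD, n = 12 chromosomes), against 206 ± 13.8 in the outer parts. The ratio was above 1 on 12 of 12 chromosomes, from 1.01 on chromosome 4 to 1.24 on chromosome 3, and on 11 of 12 when the whole list of either control, only peaks with −log10 q of 5 or more, or the top 20000 peaks were used. With each chromosome cut into 10 equal parts, the density was 209.6 peaks per Mb in the first part, 254.9 in the fourth and 190.5 in the last. By chromosome, the stretch between 25 and 75% was denser than both the first and the last part on 10 of 12, and on chromosomes 4 and 9 the first part was denser than this stretch. The last part was sparser than the first on 7 chromosomes and denser on 5.

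The spacing of common peaks was uneven at short range. The gap between neighbouring peaks had a median of 2368.5 bp and a mean of 4111 bp over 82706 gaps, with the middle 50% between 826 and 5689 bp. By chromosome the median gap was 2356 ± 196 bp (SD, n = 12), from 2089 bp on chromosome 12 to 2700 bp on chromosome 3. Gaps under 1 kb made up 29.3% and gaps over 10 kb 10.3% of all gaps. A random scatter with the same mean and smallest gap would give 19.2% and 8.30%, values from a formula with no test. The smallest gap was 154 bp and the smallest peak width 153 bp, so that closer peaks had been joined into one by the peak caller. The variance of counts over their mean, which grows with window size, was 1.13 in windows of 10 kb, 1.91 in windows of 100 kb and 5.78 in bins of 1 Mb. With counting error taken off and relative to the mean count, the excess was 0.0593, 0.0411 and 0.0216. A larger window averages over the smaller ones inside it, which tends to lower this excess. The fall therefore does not show at which scale the unevenness lies. Of 37315 windows of 10 kb, 12.8% held no common peak and the fullest held 10.

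Long stretches without a common peak were few, with 18 gaps over 50 kb. The longest was chr11:12328836-12554972 with 226137 bp, at 42.9% of the chromosome. No peak of the hypermethylated pH 5.5 or pH 7.0 lists lay in it, and the CK pH 7.0 and both demethylated conditions had only 1 or 2 peaks per list. The second was chr7:1305979-1403912 with 97934 bp, also without any peak in the 4 hypermethylated lists. There CK pH 7.0 and demethylated pH 7.0 each had 1 peak in 1 list and 0 in the other, and demethylated pH 5.5 had 2 and 3. The third was chr2:34061035-34155489 with 94455 bp, where 2 input-called peaks were not matched by an IgG-called one and each hypermethylated pH 7.0 list had 3 peaks. In it CK pH 7.0 had 1 IgG-called and 0 input-called peaks, demethylated pH 7.0 had 1 per list, and demethylated pH 5.5 had 3 and 5. Windows of 100 kb held a mean of 22.2 common peaks in hypermethylated and 20.3 in demethylated DNA at pH 5.5. These 3 stretches thus held few peaks in every condition. The gaps were chosen for lacking common peaks in hypermethylated DNA at pH 5.5, so these counts are a description only. Whether unassembled or unmappable sequence contributes to such gaps was not tested.

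With neighbours joined at gaps of up to 1 kb, 48.5% of common peaks (95% Wilson interval 48.1 to 48.8) lay in 15888 clusters of 2 or more. The interval takes peaks as independent, which members of a cluster are not, so it is too narrow. A part of this share would also arise in a random scatter, where 19.2% of gaps would be under 1 kb, against 29.3% here. These are shares of gaps, not of peaks. A peak is clustered if the gap on either side is short, so the random share of clustered peaks would be above 19.2%. Its value was not computed, and 48.5% is not to be set against 19.2%. Pairs made up 10556 clusters, 4647 had 3 or 4 peaks and 685 had 5 or more. The share in clusters was 48.6 ± 2.28% by chromosome (SD, n = 12), from 44.9% on chromosome 3 to 52.1% on chromosome 12, the chromosomes of lowest and highest density. Clustered peaks were wider than single ones, with a median of 319 bp against 273 bp and 380 bp in clusters of 5 or more. The part of close peaks joined by the peak caller in these widths was not tested. The fold of clustered and single peaks was nearly the same, with a median of 4.25 against 4.11. The largest cluster was chr5:29915924-29938582, in which 15 peaks covered 71.2% of 22.7 kb with a median fold of 10.7. The second, chr2:25059235-25073820, had 13 peaks over 14.6 kb with a median fold of 4.13, and the third, chr8:6999101-7011484, had 12 peaks over 12.4 kb with a median fold of 5.85. The first of them ended 18.8 kb before the last peak end of chromosome 5, and the other clusters lay inside the chromosomes.

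Common peaks were narrow. The median width was 293 bp, the middle 50% lay between 213 and 464 bp, and the widest 5% exceeded 1024 bp. All together they covered 33.1 Mb, or 8.88% of the genome, and the 4399 peaks of at least 1 kb (5.32%) held 18.4% of these bases. Fragments had been sheared to 100 to 500 bp, a range that holds the median width. The length of the sequenced fragments was not known here. The median width was 1.92 times the smallest width of the list, 153 bp. By chromosome the median width was 294 ± 5.80 bp (SD, n = 12), from 286 bp on chromosome 3 to 308 bp on chromosome 12. Width rose with fold. Of 10 equal groups of common peaks by fold, the lowest had a median fold of 2.32 and a median width of 217 bp. The highest had a median fold of 10.1 and a median width of 507 bp. Spearman's rho between width and fold over the common peaks was 0.47, given as a description, since a taller peak crosses the calling threshold over a longer stretch. The widest peak was chr5:29883922-29892046 with 8125 bp and a fold of 12.3, followed by chr6:18069-25326 with 7258 bp and chr8:28424615-28430840 with 6226 bp. Each of these 3 lay within 70 kb of a chromosome end.

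**Figure D2:**
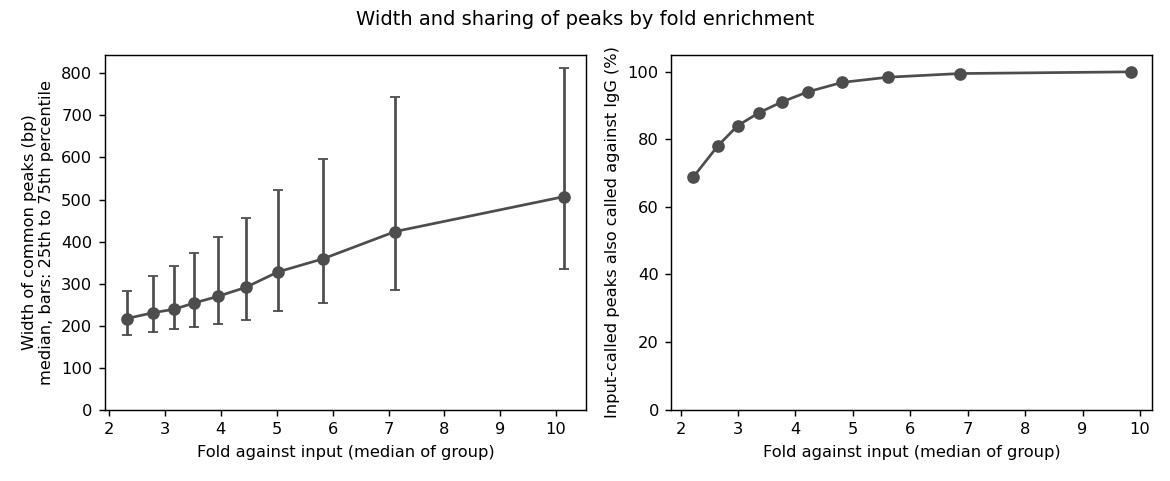
Left, width of common peaks in bp for 10 equal groups by fold against input (points, medians; bars, 25th to 75th percentile). Right, percent of input-called peaks that were common in 10 equal groups by fold. The median width rose from 217 to 507 bp and the shared percent from 68.8 to 99.9.

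The 3 highest folds stood close to chromosome starts. The highest was 110.1 at chr10:1006-1494, the second 109.8 at chr8:1001-1762 and the third 80.8 at chr2:6-493, against a median of 4.16 for all common peaks. Against IgG the same peaks had folds of 19.9, 19.9 and 17.1. At 7 of the 12 chromosome starts a common peak lay within 2 kb, and 6 of these 7 were among the 1% of common peaks with the highest fold, which began at 16.2. At the far ends a common peak lay within 2 kb on 9 of 12 chromosomes, and 5 of these 9 were in the top 1%, with folds from 2.65 to 71.0. However, chromosome length was taken from the last peak of any list, this one included, so this end is only a lower bound. Whether a peak lies near it is thus partly fixed by that definition. On chromosomes 2, 4, 6, 7 and 11 the common peak itself reached the end so defined. Of the 20 common peaks with the highest fold, 9 lay within 2 kb of a chromosome start or of a far end so defined. Repeats at the chromosome ends were not analysed here, and their part in these folds was not tested.

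Most peaks were called against both controls, and the others were mostly weak. Against input, 9381 peaks were not matched by IgG, 10.2% of the list (95% Wilson interval 9.99 to 10.4), and against IgG 6729 were not matched by input, or 7.40% (7.23 to 7.57). The input-only peaks had a median fold of 2.80 and a median width of 187 bp, against 4.16 and 293 bp in common peaks. The IgG-only peaks were alike, with 2.70 and 177 bp. The input-only share depended on the threshold. It was 21.3% at a fold of at least 4 in both lists, where a partner just under the limit no longer counts, and 2.25% with that limit on the input-called list only, a setting chosen after seeing the data. In 10 equal groups of input-called peaks by fold, the common share rose from 68.8% in the lowest to 99.9% in the highest. The input-only peak of highest −log10 q-value was chr11:12299879-12300100, with 1303 iMab fragments over an input level of 453 and a fold of 2.87. Its coverage was thus far above background in both the IP and the input, and it lay within 50 kb of the longest gap. The IgG-only peak of highest −log10 q-value was chr3:19788900-19789130, with 91 fragments over an IgG level of 10.4 and a fold of 8.08.

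The 2 controls were then compared at the same base. In 41590 common peaks, 50.3% of the set, the input-called and the IgG-called summit were the same base, so the iMab coverage was the same and the 2 folds differed by the control level alone. In the 41265 of them whose fragment number was recovered in both lists, this number was identical in 100% of cases. The IgG level was the higher one in 56.0%, the input level in 37.2%, and the levels were equal in 6.79%. Their means were 11.4 fragments for input and 12.7 for IgG. Both exceed the background of 9.35 by construction, since background is the lowest level of a list. The log2 ratio of the fold against input to the fold against IgG was 0.12 ± 0.01 (SD, n = 12 chromosomes), a ratio of 1.09, and positive on 12 of 12 chromosomes, with a median over peaks of 0.04. The offset was therefore small at most peaks, and the middle 90% of the log2 ratios lay between -0.37 and 0.80. High control levels were more frequent in IgG. Over whole lists, 4312 IgG-called peaks, or 4.75%, had a control level at least 2 times background, against 771 input-called peaks, or 0.841%.

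The median IgG level rose with the iMab signal, and the median input level did not. In 10 equal groups by iMab fragments at the shared summit, the median IgG level went from 9.91 fragments in the lowest group to 12.5 in the highest, whereas the median input level was 9.91 and 9.83. IgG levels of at least 2 times background made up 1.79% in the fifth group and 20.1% in the highest, and such input levels 0.194% and 7.54%. Weak peaks over a high control level cannot be called, which keeps this share near 0 in the lowest groups for both controls. Where the input level stood at background (11585 peaks), the share with a high IgG level still rose from 6.04% in the fifth group to 23.0% in the highest. Where the IgG level stood at background (7916 peaks), the share with a high input level was 0.126% in the highest group. At pH 7.0 the first of these shares was 0.388% in the highest group. The largest IgG excess was at chr4:29899958-29900340, where 141 iMab fragments gave a fold of 13.7 over an input level of 9.35 and a fold of 2.04 over an IgG level of 68.6. The largest input excess was at chr10:10826651-10826990, with an input level of 21.7, an IgG level of 9.35 and folds of 3.39 and 7.44. The excess was thus up to 7.33 times for IgG, and the lowest ratio of IgG to input was 0.431.

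**Figure D3:**
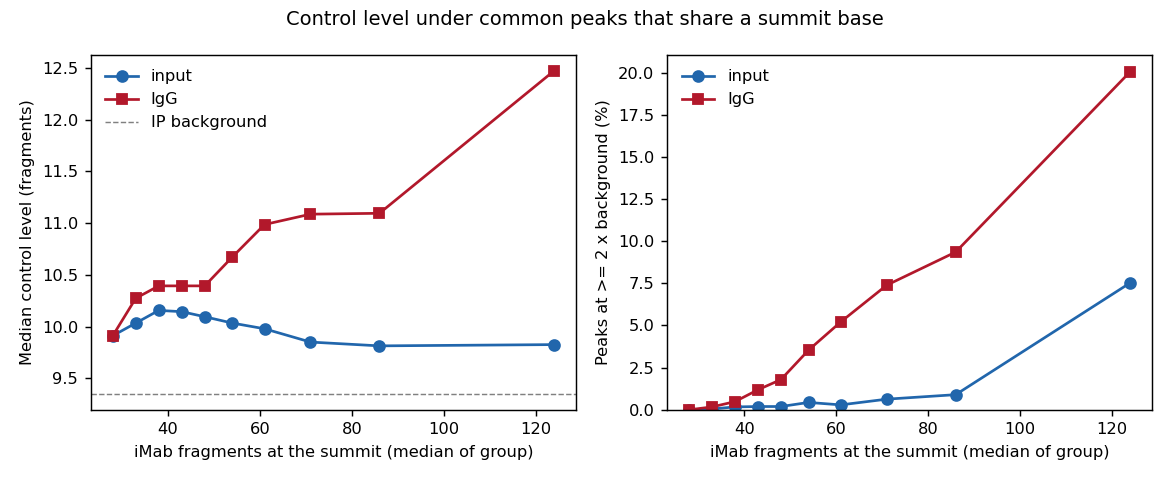
Control level under common peaks of hypermethylated DNA at pH 5.5 whose summit was the same base against input (circles) and IgG (squares), in 10 equal groups by iMab fragments. Left, the median level in fragments, with the iMab background of 9.35 dashed; right, the percent of peaks whose level was at least 2 times background, which reached 20.1 for IgG and 7.54 for input.

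Over 10 parts of chromosome length the input-only share was close to even, while the IgG-only share and the log2 fold ratio changed with position. By chromosome the input-only share was 10.2 ± 0.470% (SD, n = 12), from 9.32% on chromosome 11 to 11.01% on chromosome 5, and the IgG-only share was 7.37 ± 0.397%, from 6.86% on chromosome 10 to 8.05% on chromosome 3. More input-only than IgG-only peaks were counted on 12 of 12 chromosomes and in 296 of 368 bins of 1 Mb, with fewer in 57. Over the 10 parts of chromosome length the input-only share stayed between 9.71 and 10.8%, while the IgG-only share went from 6.55% in the third part to 8.60% in the last. The log2 fold ratio was 0.14 in the fourth part and 0.08 in the last, so the IgG level was relatively higher where peaks were dense.

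Among bins, the input-only share ran from 4.92 to 16.7%, with an SD of 2.102 percentage points, where counting error alone gives 1.94 at the median of 244 input-called peaks. The range was thus near that of counting error. The IgG-only share had an SD of 1.89 percentage points over bins, and its counting error was not computed. The highest share was in chr4:24000001-25000000 with 37 of 221 input-called peaks (95% Wilson interval 12.4 to 22.2%), then chr1:1000001-2000000 with 16.1% and chr9:15000001-16000000 with 15.4%. The lowest was in chr12:9000001-10000000 with 15 of 305 (3.00 to 7.95%), then chr11:28000001-29000000 with 5.14% and chr4:33000001-34000000 with 5.23%. The order within each of these sets of 3 is not resolved. The log2 fold ratio was above 0 in 367 of 368 bins. It was highest in chr8:6000001-7000000 with 0.27, a bin of 271 common peaks of median width 382 bp, and -0.04 in chr4:34000001-35000000, one of the 5 sparsest bins.

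Dense bins also held wider peaks. Over the 368 bins, Spearman's rho with density was 0.59 for median width, 0.33 for the log2 fold ratio, -0.38 for the IgG-only share, -0.23 for the input-only share and 0.03 for median fold, all given as descriptions of bins that share 1 set of libraries. In the fifth of bins of lowest density (134 to 187 peaks) the median width was 276 bp, the IgG-only share 8.40% and the input-only share 11.3%. In the fifth of highest density (252 to 331 peaks) they were 318 bp, 6.01% and 9.71%. The median fold was the same to 2 decimals, 4.15 in both. Denser bins, which hold more peaks by definition, therefore had wider peaks of like median fold. The peak caller joins close peaks, and the part of this joining in the widths was not tested.

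**Figure D4:**
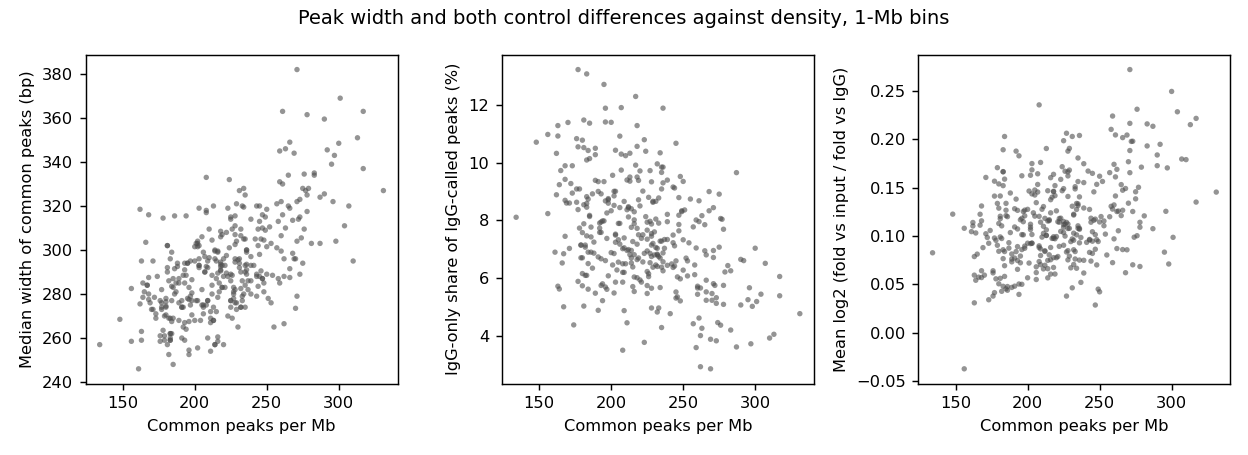
Full 1-Mb bins (368 points) by density of common peaks per Mb, against their median width in bp (left), the percent of IgG-called peaks without an input-called partner (middle) and the mean log2 ratio of the fold against input to the fold against IgG (right). Width and the log2 ratio were higher, and the IgG-only percent lower, in denser bins.

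Compared with demethylated DNA at the same pH, the hypermethylated landscape was more uneven at the scale of 1 Mb. Demethylated DNA had 75913 common peaks (62.3% of its input-called peaks, while 99.5% of its IgG-called peaks had an input-called partner) and a bin CV of 0.104 against 0.162, although its bins held nearly as many peaks (mean 203 against 221). The density between 25 and 75% of the length over that of the outer parts was 1.17 in hypermethylated and 1.02 in demethylated DNA. The difference was 0.148 ± 0.0607 (SD, n = 12 chromosomes) and positive on 12 of 12 chromosomes. For bins chosen as the sparsest and densest of hypermethylated DNA, the values are given as a description only. In chr3:1000001-2000000, hypermethylated DNA had 134 common peaks and demethylated DNA 191, and in chr4:10000001-11000000 they had 331 and 204. The largest relative excess was in chr11:12000001-13000000 with 208 against 107 peaks, a bin that held 21 input-called peaks over an input level at least 2 times background, whose part was not tested. Pearson's r between both conditions over 368 bins was 0.29 for common peaks, 0.28 for IgG-called and 0.62 for input-called peaks, and 0.03 for the top 20000 common peaks of each, given as descriptions. The likeness of both landscapes thus depended on the list used. Gaps and widths differed as well, with medians of 2852 bp and 336 bp in demethylated DNA. However, the median width was 1.92 times the smallest width of the list in hypermethylated and 2.78 times in demethylated DNA (smallest width 121 bp). The input-only share was 37.7% in demethylated DNA and 10.2% in hypermethylated DNA. In demethylated DNA the 2 lists also had unlike backgrounds, 7.99 fragments against input and 4.78 against IgG, whereas both stood at 9.35 in hypermethylated DNA.

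Hypermethylated DNA at pH 7.0 shared the input library, so its values are set side by side only. It had 67787 common peaks (95.1% of those called against input), a bin CV of 0.161, a median gap of 2942 bp, 44.7% of peaks in clusters and a ratio of 1.16 between the middle stretch and the outer parts. The difference of that ratio from pH 5.5 was 0.00776 ± 0.0326 (SD, n = 12 chromosomes), within the spread over chromosomes, and positive on 4 of 12. Over the IgG-called lists, which share no library, Pearson's r between both pH values was 0.90 in 368 bins. The peaks at pH 7.0 were wider, with a median of 437 bp, but the smallest width of that list was 199 bp against 153 bp and its background 11.4 against 9.35 fragments, and the part of fragment length and depth in the wider peaks was not tested. The input-only share was 4.92% and the IgG-only share 4.95% at pH 7.0, against 10.2% and 7.40% at pH 5.5. The log2 fold ratio at shared summits was 0.04 ± 0.0049 at pH 7.0 (SD, n = 12 chromosomes), below the 0.12 of pH 5.5. The bins with the largest relative excess at pH 5.5 were chr2:13000001-14000000 with 310 common peaks, against 195 at pH 7.0, and chr1:16000001-17000000 with 290, against 183. They held 38 and 55 input-called peaks over an input level at least 2 times background, against a median of 0 over all bins, and the part of these peaks in the excess was not tested.

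**Figure D5:**
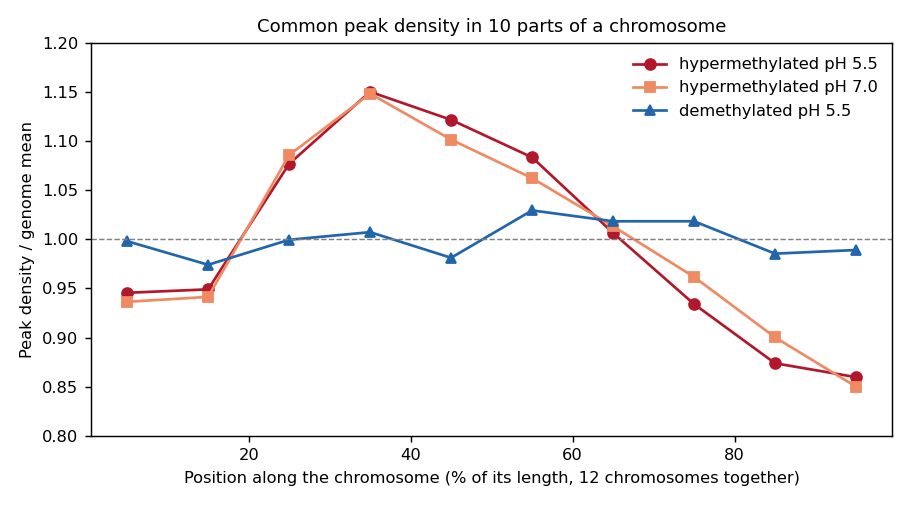
Density of common peaks in 10 equal parts of chromosome length over the genome mean of the same condition, for hypermethylated DNA at pH 5.5 (circles) and pH 7.0 (squares) and demethylated DNA at pH 5.5 (triangles), 12 chromosomes together. At pH 5.5 hypermethylated DNA ran from 1.15 in the fourth part to 0.860 in the last, and demethylated DNA stayed between 0.974 and 1.03.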

How the data were processed

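iM-IP-seq was performed on rice DNA, and 17 libraries were labelled. The authors trimmed reads with Fastp, aligned them to MSU v7.0 with BWA, removed poorly mapped reads with SAMtools and duplicates with Picard, merged both IP replicates and called peaks in MACS2 (version 2.1.1), with input or IgG as control, read pairs as fragments and a q-value limit of 0.05. Each deposited peak has a position, a summit, a fold enrichment (a ratio) and a −log10 p-value and −log10 q-value. These deposited scores were used to rank, filter and describe peaks.

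Common peaks were input-called peaks that shared 1 bp or more with an IgG-called one, and were assigned to bins by summit. The last peak end of any of the lists stood for chromosome length, with assembly gaps left in. Clusters join peaks at gaps of up to 1 kb. Correlations over bins carry no test. The lists carry no read depth. Since the fold of MACS2 is the summit coverage plus 1 over the control level plus 1, and its p-value is the Poisson tail of these quantities, both were solved for each peak with a −log10 p-value of up to 250. The solution was found for 91695 of 92099 input-called and 90727 of 90964 IgG-called peaks, and the others were left out of control levels. The lowest control level of a list is the background.

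Libraries were grouped by their titles. For demethylated pH 7.0, the IP descriptions point to a list of another condition, and the list bearing its own name was used. With merged replicates no test between conditions was possible and no p-value is given. Means ± SD over the 12 chromosomes describe spread along one merged library. The named bins and peaks are the 5 densest and 5 sparsest full bins, the 3 longest gaps, the 3 largest clusters, the 3 widest peaks, the 3 highest folds, the 3 highest and 3 lowest bins by input-only share (at least 50 input-called peaks) and the input-only and IgG-only peak of highest −log10 q-value. The ratio of density between 25 and 75% of the length to the outer parts, extremes of control level, bins that differ most from another condition and the chromosome ends were chosen after their values were seen. The members and rules were chosen with earlier results of these data known. Alternatives were the whole input-called or the whole IgG-called list, a minimum of 5 for −log10 q or of 4 for fold, 50% overlap of the shorter peak, only the 20000 peaks of highest −log10 q, other bin sizes and cluster gaps, and other measures of gap, width and fold. Sequence, motifs and gene annotation were not analysed here, since no MSU v7.0 sequence was used. Calculations were done in Python 3.11.15 with numpy 2.4.6, pandas 2.3.3 and scipy 1.17.1, and overlaps were checked on simulated data against bedtools 2.31.1.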

Additional observations from a re-analysis of the deposited data

How the results depend on the processing

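No paired analysis was possible because the replicates were merged before peak calling, so no replicate could be left out and no block fitted. Of 55 values under other settings, 20 stayed within the spread over chromosomes, the counting interval or 1.5 times the count. An overlap of 50% moved none of the results it was tried on. With all input-called peaks there were 248 peaks per Mb, a median gap of 2040 bp, 52.4% in clusters and a median width of 280 bp. With all IgG-called peaks these were 245, 2145.5 bp, 49.98% and 269 bp. At a −log10 q-value of at least 5 they were 190.5, 2901 bp, 43.2% and 309 bp, with 10.5% of input-called peaks not common. At a fold of at least 4 in both lists, 35702 common peaks were left, with 96.4 per Mb, 6447 bp, 24.5%, 353 bp and 21.3% not common. The top 20000 peaks gave 54.1 per Mb, 11408.5 bp, 17.4%, 442 bp and a bin CV of 0.239, against 0.332 at pH 7.0 and 0.171 in demethylated DNA. The CV was 0.188 in bins of 500 kb. Clusters held 28.3% at gaps of up to 500 bp and 69.2% at up to 2 kb. The summit distance was 2771 bp, the IgG-called width 282 bp and the mean width 401 bp. The log2 fold ratio was 0.11 with summits within 50 bp and 0.044 as a median. With the top 20000 peaks of each condition the difference of the middle-over-outer ratio was 0.233 against demethylated DNA and -0.0812 against pH 7.0, a change of sign. Density, gap and clusters move with the number of peaks by construction.

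Chosen after seeing the data, the thresholds were also set in the input-called list only, which gave 6.70% not common at a −log10 q-value of at least 5 and 2.25% at a fold of at least 4. The share that is not common thus rises or drops with the fold threshold depending on whether both lists are filtered. The density between 25 and 75% of the length exceeded that of the outer parts as a mean over chromosomes under all 6 alternatives tried, from 1.15 to 1.23 times, though on 11 of 12 chromosomes in 4 of them. Counting error alone gives bin counts a CV of 0.0672 at the mean of 221 common peaks per 1-Mb bin. It gives a larger CV where bins hold fewer peaks, as with the top 20000 peaks (mean 53.6) or bins of 500 kb. Those CVs are therefore not comparable with 0.0672. The control levels rest on 1 IgG and 1 input library.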

Other observations

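The end of chromosome 5, a region chosen after its values were seen, was dense in wide peaks. Its last 160 kb held 56 common peaks of hypermethylated DNA at pH 5.5, which covered 45.1% of the region with a median width of 700.5 bp and a median fold of 7.81. Common peaks covered 56.9% of it in the hypermethylated pH 7.0 condition, 54.3% in demethylated pH 7.0, 40.2% in CK pH 7.0 and 23.5% in demethylated pH 5.5. The smallest width differed between these lists, from 121 to 206 bp.

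A few bins held many peaks over a high control level. At least 2 times background was reached in the input by 55 input-called peaks in chr1:16000001-17000000, by 44 in chr9:2000001-3000000 and in chr12:20000001-21000000, by 39 in chr6:15000001-16000000 and by 38 in chr2:13000001-14000000, against a median of 0 over 368 bins. In IgG the same bins held 63, 65, 57, 50 and 62 such peaks, against a median of 10. Their common peaks at pH 5.5 numbered 290, 304, 221, 271 and 310 in the same order.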
